A study of Homo sapiens with 16 samples.

Results

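The 8 genes described here, ANLN, CIT, ECT2, RACGAP1, ARHGAP11A, CEP55, DEPDC1 and DEPDC1B, encode proteins of the contractile ring, of RhoA control at the cell equator and of the final cut between daughter cells, together with a pair of DEP domain proteins of mitotic cells. They were taken by name, as all probe sets whose only gene symbol in the platform annotation is one of the 8. This gave 13 of 54675 probe sets, for 7 of 19775 genes with a symbol of their own. Of the 7, 4 had 1 probe set and 3 had several. CIT, which encodes citron kinase of the midbody, was represented only by probe sets that carry several symbols, so no level is given for it.

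The samples were 16 arrays of total RNA from SAOS cells, a cultured line grown out of a human osteosarcoma and known to make no working RB protein. The 4 groups of 4 arrays were cells given both human RB and mouse SMYD2, cells given human RB alone, cells given mouse SMYD2 alone, and untransfected control cells. The transfections were transient. Control cells were untransfected, and no empty-vector group is labelled. The share of cells transfected is not stated in the labels. The question was how extra SMYD2, an enzyme that methylates lysines, affects RB introduced into these cells. Arrays of each group carry the numbers 1, 3, 4 and 5. Whether each was a culture of its own is not stated, so the p-values cover the spread of these arrays only, and that spread could be technical.

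Cytokinesis divides the cytoplasm after the chromosomes have separated. Signals from the spindle midzone place the exchange factor ECT2 at the equator, where it loads the GTPase RhoA with GTP, and active RhoA assembles a ring of actin and myosin. The ring closes onto the midbody, a bridge of bundled microtubules, and the ESCRT machinery cuts that bridge. Many of these genes are transcribed mainly in the G2 and M phases. RB holds back E2F transcription factors and with them the entry into S phase, so levels in a mixed culture also depend on how many cells are dividing. In bulk RNA, fewer cells in a phase and less transcript per cell cannot be told apart.

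The transfected RB was visible on the arrays. RB1 read 7.90, 7.90, 9.25 and 9.62 with RB plus SMYD2 and 7.40, 7.43, 8.10 and 7.87 with RB (log2 signal, arrays 1, 3, 4 and 5). With SMYD2 alone it read 6.89, 6.59, 6.98 and 6.92, against 6.24, 6.49, 6.27 and 6.93 in control. Both groups given RB lay above both groups not given it. The human SMYD2 probe set, which need not detect the mouse transcript, read 10.19 to 10.36 with SMYD2 alone, against 10.12 to 10.23 in control. Osteoblast markers fitted the labelled line, with RUNX2 at 12.13 to 12.66 and COL1A1 at 13.13 to 13.97, while SPP1 was low at 4.78 to 6.34. The mean of 8 measured osteoblast markers of 10 was 11.13 to 11.58 with RB plus SMYD2, 11.22 to 11.59 with RB, 10.74 to 11.23 with SMYD2 and 10.78 to 11.32 in control. Of them SPARC rose by 0.81 ± 0.16 and SPP1 by 0.83 ± 0.16 in RB against control (limma adjusted p 0.0105 and 0.00794). Whether that shift has a part in the results below was not tested. Leukocyte and endothelial markers were dim, with PTPRC at 3.61 to 3.96 and CDH5 at 3.97 to 4.35. The epithelial list was mixed, with CDH1 at 3.95 to 4.38 but EPCAM at 9.05 to 9.62 and KRT18 at 9.25 to 10.26.

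Array 1 of the SMYD2 group stood apart. Its log2 signal for ACTB at the 3′ end exceeded that at the 5′ end by 3.53. The other 15 arrays had gaps of 0.54 to 2.46, the largest of them on control array 1. For GAPDH the same gap was small, at 0.16 on SMYD2 array 1 and -0.01 to 0.10 on the other 15, with 0.06 on control array 1. A larger gap means that less of the 5′ part of the transcript was labelled. On average the ACTB difference was 0.95 ± 0.31 with RB plus SMYD2, 1.02 ± 0.46 with RB, 1.62 ± 1.34 with SMYD2 and 1.17 ± 0.89 in control (SD, n = 4). The tests of the 7 genes that use the SMYD2 group are therefore given with and without it.

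Promoter sequences are shown as background, and their part in the differences given below was not tested. Windows of 250 bases before to 50 bases after an annotated start were taken from RefSeq on GRCh38.p14, and 7 of the 8 genes had an entry there, CIT included; RACGAP1 had none. Both strands were searched for the CHR element (TTTGAA), for the CCAAT box (CCAAT) and for an E2F site (TTTCCCGC, TTTCGCGC, TTTGCCGC or TTTGGCGC). CHR elements, often paired with CCAAT boxes, are known from promoters of genes expressed in G2 and M phase. In the lines below, capitals mark CHR and CCAAT letters on either strand, so TTCAAA is the CHR read on the opposite strand. The stretches run from 80 bases before to 20 bases after the start, for CEP55 from 120 bases before, and for ECT2 lie wholly before it, so further ECT2 matches nearer the start are not shown. Each is printed 5′ to 3′ on the strand of its gene.
ANLN, chr7:36389782-36389881, plus strand: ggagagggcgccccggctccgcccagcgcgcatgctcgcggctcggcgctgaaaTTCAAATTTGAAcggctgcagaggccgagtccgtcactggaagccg
ECT2, chr3:172750606-172750675, plus strand: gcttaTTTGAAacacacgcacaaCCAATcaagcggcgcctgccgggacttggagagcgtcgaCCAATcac
CEP55, chr10:93496492-93496631, plus strand: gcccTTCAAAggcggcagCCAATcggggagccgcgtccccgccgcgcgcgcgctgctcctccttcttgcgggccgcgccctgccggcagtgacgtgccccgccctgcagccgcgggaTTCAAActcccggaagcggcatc
DEPDC1, chr1:68497063-68497162, minus strand: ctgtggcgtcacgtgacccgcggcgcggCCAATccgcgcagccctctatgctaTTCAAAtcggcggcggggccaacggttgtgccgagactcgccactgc
DEPDC1B, chr5:60700147-60700246, minus strand: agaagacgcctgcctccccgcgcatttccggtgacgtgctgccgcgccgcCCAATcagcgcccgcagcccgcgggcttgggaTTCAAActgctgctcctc
ARHGAP11A, chr15:32615064-32615163, plus strand: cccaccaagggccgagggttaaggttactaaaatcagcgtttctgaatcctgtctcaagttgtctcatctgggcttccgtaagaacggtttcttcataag

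The 7 genes with an entry had 8 windows, since ECT2 had 2, which overlap and share a CHR match. CIT is counted here, with both CHR and CCAAT letters, but its sequence is not shown because it has no level. RACGAP1 has no window, so these are not the 7 measured genes. CHR letters stood in 7 of the 8 windows (6 of the 7 genes), against 15.2% of all 35116 windows. The ANLN stretch carries a pair of them back to back, at -26 to -21 and -20 to -15 from the start. In DEPDC1 the CHR begins at -27 and the CCAAT box at -52, and in CEP55 a CHR lies across the start itself. CCAAT letters occurred in 5 of the 8 windows, against 34.6% of all, and both elements together in 5 of the 8, against 5.90%. None of the 8 held the E2F letters searched, which 3.31% of all windows did. ARHGAP11A held none of the 3 elements. These matches describe letters in a fixed window and do not show that a factor binds there.

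ANLN encodes anillin, the scaffold that ties actin, myosin and septins of the contractile ring to the membrane. The log2 signal of ANLN was 9.57, 10.22, 9.76 and 9.82 with RB plus SMYD2 and 10.17, 10.67, 10.10 and 10.07 with RB (arrays 1, 3, 4 and 5, as for every gene below). It was 9.58, 10.65, 10.92 and 11.07 with SMYD2, against 10.55, 11.08, 11.14 and 10.98 in control. All arrays given both proteins lay below all control arrays, whereas the RB group touched control through its array 3. The SMYD2 group spread over the whole range, with array 1 close to the lowest of all 16 and the other 3 within the control range. Group means were 9.84 ± 0.27 with RB plus SMYD2, 10.25 ± 0.28 with RB, 10.55 ± 0.67 with SMYD2 and 10.94 ± 0.27 in control (SD, n = 4).

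ECT2 is the exchange factor that activates RhoA at the equator. It measured 9.75, 10.16, 9.69 and 9.87 with RB plus SMYD2 and 10.34, 10.30, 10.03 and 9.99 with RB. The SMYD2 arrays gave 10.60, 10.70 and 10.71 with array 1 apart at 9.79, against 10.58, 10.78, 10.91 and 10.76 in control. Neither group given RB overlapped control. Mean ECT2 signals were 9.87 ± 0.21 with RB plus SMYD2, 10.16 ± 0.18 with RB, 10.45 ± 0.44 with SMYD2 and 10.76 ± 0.13 in control (SD, n = 4).

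RACGAP1 encodes the GTPase-activating subunit of centralspindlin, the complex that bundles midzone microtubules and recruits ECT2. Its signals were 10.34, 10.55, 10.24 and 10.14 with RB plus SMYD2 and 10.64, 10.78, 10.41 and 10.51 with RB. They were 11.03, 11.03, 11.18 and 11.26 with SMYD2, against 11.17, 11.17, 11.25 and 11.23 in control. RACGAP1 thus separated the 8 arrays given RB from the 8 that were not, and SMYD2 array 1 did not stand apart for it. Its means were 10.32 ± 0.18 with RB plus SMYD2, 10.59 ± 0.16 with RB, 11.12 ± 0.12 with SMYD2 and 11.20 ± 0.04 in control (SD, n = 4).

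ARHGAP11A encodes a GTPase-activating protein of mitotic cells. Here the arrays read 5.81, 6.31, 5.89 and 5.78 with RB plus SMYD2 and 6.41, 6.23, 6.08 and 6.38 with RB. With SMYD2 they read 5.57, 6.65, 7.15 and 7.54, against 6.84, 6.99, 7.41 and 7.32 in control. SMYD2 array 1 was the lowest of all 16 arrays for ARHGAP11A, and the groups given RB did not overlap control. The means were 5.95 ± 0.25 with RB plus SMYD2, 6.27 ± 0.15 with RB, 6.73 ± 0.86 with SMYD2 and 7.14 ± 0.27 in control (SD, n = 4). The near-identical human copy ARHGAP11B has no probe set of its own here, so how far both genes share this signal is uncertain.

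CEP55 recruits the ESCRT machinery to the midbody. CEP55 signals were 9.16, 9.66, 9.34 and 9.37 with RB plus SMYD2 and 9.67, 10.16, 9.89 and 9.72 with RB. SMYD2 cells gave 9.43, 10.17, 10.72 and 10.76, against 10.01, 10.53, 10.70 and 10.79 in control. The highest array with both proteins, at 9.66, lay just under the lowest with RB, at 9.67, and the RB group overlapped control. CEP55 averaged 9.38 ± 0.21 with RB plus SMYD2, 9.86 ± 0.22 with RB, 10.27 ± 0.62 with SMYD2 and 10.50 ± 0.35 in control (SD, n = 4).

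DEPDC1 and DEPDC1B are related proteins with a DEP and a RhoGAP-like domain, both known to be made mainly by mitotic cells. DEPDC1 read 9.58, 9.85, 9.46 and 9.57 with RB plus SMYD2 and 10.04, 10.14, 9.93 and 10.00 with RB. Its SMYD2 arrays read 9.91, 10.42, 10.83 and 10.80, against 10.39, 10.71, 10.76 and 10.73 in control. For DEPDC1 the arrays fell into 3 layers without overlap, RB plus SMYD2 below RB below control, while the SMYD2 group reached from just under the RB arrays, on array 1, up into the control range. DEPDC1B read 7.33, 7.42, 7.21 and 7.36 with RB plus SMYD2 and 7.50, 7.75, 7.55 and 7.48 with RB. On the SMYD2 arrays it read 7.79, 7.99, 8.39 and 8.52, against 8.18, 8.16, 8.49 and 8.62 in control. DEPDC1B showed the same 3 layers, and its SMYD2 arrays all lay above its RB arrays. DEPDC1 averaged 9.61 ± 0.17 with RB plus SMYD2, 10.03 ± 0.08 with RB, 10.49 ± 0.43 with SMYD2 and 10.65 ± 0.17 in control (SD, n = 4). DEPDC1B averaged 7.33 ± 0.09 with RB plus SMYD2, 7.57 ± 0.12 with RB, 8.17 ± 0.34 with SMYD2 and 8.36 ± 0.23 in control (SD, n = 4).

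**Figure D1:**
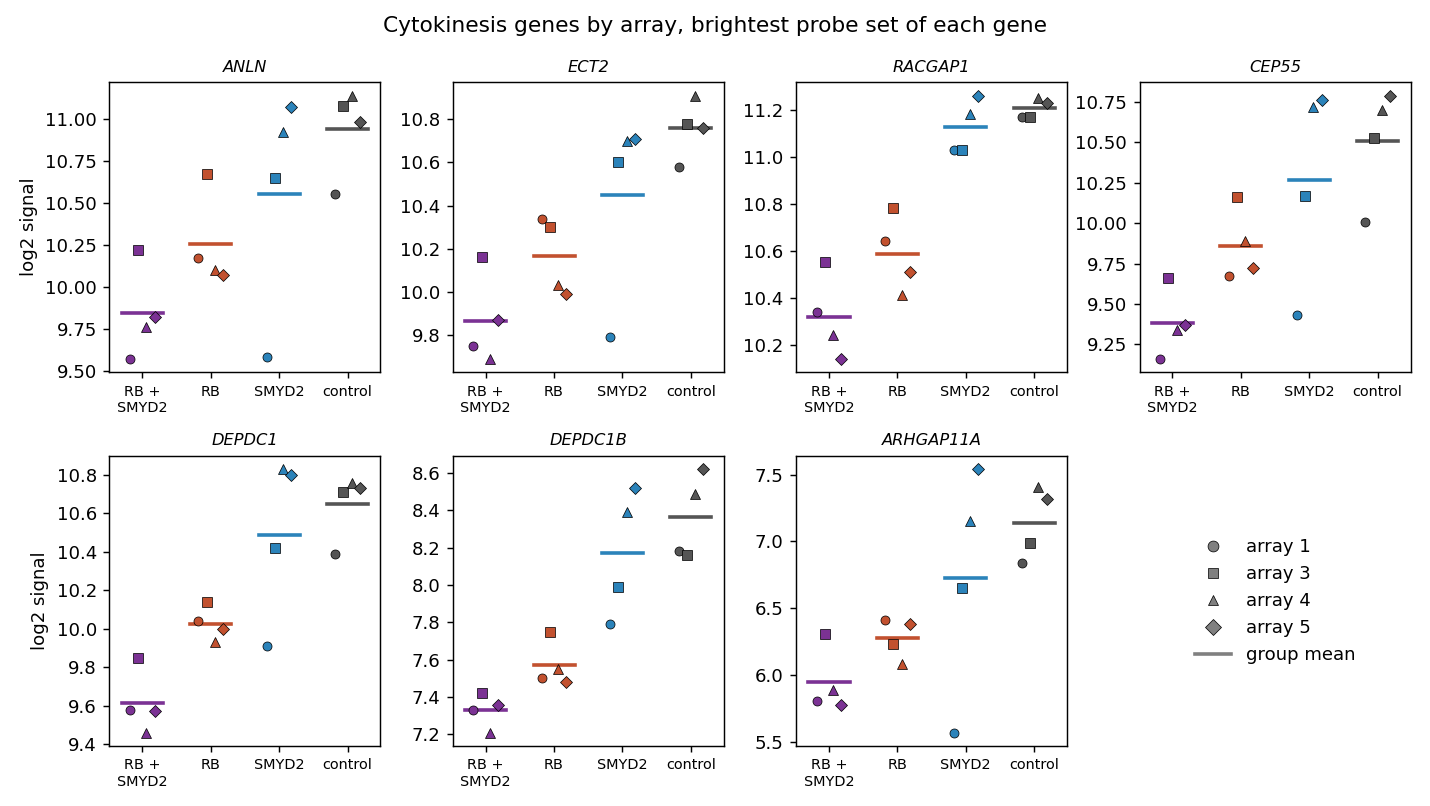
Log2 signal (y axis) of the brightest probe set of each of the 7 measured genes on every array, by group (x axis), with the array number as the symbol and the group mean as a line. The circle of the SMYD2 group, array 1, lies far under the other SMYD2 arrays for ANLN, ECT2, CEP55, DEPDC1 and ARHGAP11A but not for RACGAP1, where it read 11.03.

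The group means followed 1 order in all 7 genes, RB plus SMYD2 lowest, then RB, then SMYD2, then control. Of all 19775 genes, 1534 (7.76%) had this order. Without SMYD2 array 1, 5 of the 7 kept it, as did 1854 genes (9.38%) of all, while CEP55 and DEPDC1 were then slightly higher with SMYD2 than in control. Neighbours in it were not all separated: no gene passed the test between SMYD2 and control or between RB plus SMYD2 and RB, as given below.

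The comparison of RB with control sets cells given RB alone against untransfected cells. Effects of the introduced protein and of transfection itself cannot be told apart in it, nor in the other comparisons with control. RACGAP1, DEPDC1 and DEPDC1B fell, by 0.62 ± 0.10, 0.62 ± 0.16 and 0.79 ± 0.14 on the log2 scale (SE, limma), which is 1.54-fold, 1.54-fold and 1.73-fold lower. Their adjusted p-values were 0.00174, 0.041 and 0.00532 (limma, Benjamini-Hochberg over all 19775 genes). The other 4 had differences of similar size but a wider spread, -0.68 ± 0.25 for ANLN, -0.59 ± 0.17 for ECT2, -0.65 ± 0.24 for CEP55 and -0.87 ± 0.29 for ARHGAP11A. Their limma adjusted p-values were 0.2, 0.0772, 0.199 and 0.139. So 3 of 7 genes were called lower and 0 higher, where 1.71% of all genes were called lower. All 7 differences were negative. In the counts below, fell and rose mean called lower and higher at a limma adjusted p under 0.05. The median difference of the 7 was -0.65, against 0.006 for all genes tested.

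With the array number as a block, the differences were unchanged and all 7 were called lower, where 3.47% of all genes were. The blocked limma adjusted p-values were 0.0308 for ANLN, 0.0234 for ECT2, 0.0248 for CEP55 and 0.0453 for ARHGAP11A. In the blocked limma fit over all probe sets, the same sets of ANLN and ARHGAP11A were not called, at adjusted p of 0.0523 and 0.0751. Each of the 7 was lower with RB in 4 of 4 same-numbered pairs, as were 13.2% of all genes, and in 5 the groups did not overlap, as in 5.20% of all genes. For those 5 the exact two-sided permutation p was 0.0286, the smallest that 4 arrays against 4 can give, and for ANLN and CEP55 it was 0.0571 by the same exact test. All groups share 1 estimate of the spread, so SMYD2 array 1 also bears on this comparison. Without it the differences were unchanged, their SE were 0.09 to 0.17 and all 7 fell, where 2.71% of all genes did. The DEPDC1 call held in 5 of the 16 fits that each left out 1 array, and its limma adjusted p reached 0.134 when RB array 4 was omitted.

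With both proteins the distance to control was the largest of the comparisons made for each of the 7 genes. ARHGAP11A fell by 1.20 ± 0.29, CEP55 by 1.12 ± 0.24 and ANLN by 1.09 ± 0.25 on the log2 scale (SE), or 2.29-fold, 2.18-fold and 2.13-fold. DEPDC1 and DEPDC1B fell by 1.04 ± 0.16 and 1.03 ± 0.14, and ECT2 and RACGAP1 by 0.89 ± 0.17 and 0.89 ± 0.10. All 7 passed (limma adjusted p 1.45e-05 to 0.0147), where 4.20% of all genes were called lower, and in all 7 the groups did not overlap, as in 7.79% of all genes. Leaving out control array 4 ended 1 of these calls, that of ARHGAP11A, at a limma adjusted p of 0.0558, and 14 of 16 such fits kept it. With the mean of all probe sets of a gene in place of the brightest, ANLN and ECT2 lost the call, at limma adjusted p of 0.154 and 0.0987.

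RB plus SMYD2 against SMYD2 sets cells given both proteins against cells given SMYD2 alone. Effects of RB and of introducing a further protein cannot be told apart in it. RACGAP1 fell by 0.81 ± 0.10, DEPDC1 by 0.88 ± 0.16, DEPDC1B by 0.84 ± 0.14, CEP55 by 0.89 ± 0.24 and ECT2 by 0.58 ± 0.17 on the log2 scale (SE). Their limma adjusted p-values were 3.86e-05, 0.00186, 0.00127, 0.0291 and 0.0468. ANLN at -0.71 ± 0.25 and ARHGAP11A at -0.78 ± 0.29 did not pass, with limma adjusted p of 0.107 and 0.122. So 5 of 7 fell, where 4.25% of all genes were called lower. The median of the 7 was -0.81, against 0.009 for all genes. With the block all 7 fell, where 7.60% of all genes did, at limma adjusted p of 0.0148 for ANLN and 0.047 for ARHGAP11A. In the blocked limma fit over all probe sets ARHGAP11A was not called, at an adjusted p of 0.0722.

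The size of these differences depended on SMYD2 array 1. Without that array all 7 genes fell, where 4.82% of all genes did, and the differences grew to -1.03 for ANLN, -0.80 for ECT2, -1.17 for CEP55 and -1.17 for ARHGAP11A. RACGAP1 moved least, to -0.84, while DEPDC1 was at -1.07 and DEPDC1B at -0.97. With all arrays the groups did not overlap for RACGAP1, DEPDC1 and DEPDC1B, as for 6.61% of all genes. Calls of those 3 held in all 16 fits that left out 1 array, that of CEP55 in 11 and that of ECT2 in 3.

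SMYD2 alone left no call. The differences from control were -0.38 for ANLN, -0.31 for ECT2, -0.08 for RACGAP1, -0.41 for ARHGAP11A, -0.23 for CEP55, -0.16 for DEPDC1 and -0.19 for DEPDC1B (log2), each at a limma adjusted p of 0.991. Of the 7 genes 0 were called, as were 0.00% of all genes, and 572 genes (2.89%) had an unadjusted p under 0.05 with limma, 0 of the 7 among them. The replicate block also gave 0 calls. Without SMYD2 array 1 the differences were -0.06, -0.08, -0.05, -0.03, 0.05, 0.03 and -0.06 in the same order of genes, so CEP55 and DEPDC1 changed sign.

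Adding SMYD2 to RB also gave no call. RB plus SMYD2 minus RB was -0.41 for ANLN, -0.30 for ECT2, -0.27 for RACGAP1, -0.33 for ARHGAP11A, -0.48 for CEP55, -0.42 for DEPDC1 and -0.24 for DEPDC1B (log2). Limma adjusted p-values were 0.988 to 1, and 0.00% of all genes were called, also with the block. By limma's unadjusted p, 856 genes (4.33%) lay under 0.05, among them RACGAP1 at 0.0123 and DEPDC1 at 0.0178. Their 95% confidence intervals were -0.47 to -0.07 and -0.75 to -0.08, and that of DEPDC1B was -0.54 to 0.07. CEP55, DEPDC1 and DEPDC1B did not overlap between the groups, as did 1.98% of all genes, with an exact two-sided permutation p of 0.0286 each. In 6 of the 7 genes all 4 same-numbered pairs were lower with both proteins, as in 9.54% of all genes. SMYD2 array 1 bears on this comparison through the shared spread. Without it the differences were unchanged, and their SE were 0.09 to 0.17, against 0.10 to 0.29 with all arrays. None of the 7 was then called, at limma adjusted p of 0.415 to 0.941, nor was any other gene. RB1 itself was 0.97 ± 0.31 higher with both proteins (SE, limma adjusted p 0.88), in 4 of 4 pairs. Its part in the lower cytokinesis signals was not tested.

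Whether the difference made by RB changed with SMYD2 was tested by the interaction. It was -0.03 ± 0.36 for ANLN, 0.01 ± 0.24 for ECT2, -0.19 ± 0.14 for RACGAP1 and 0.09 ± 0.41 for ARHGAP11A (log2, SE). For CEP55, DEPDC1 and DEPDC1B it was -0.24 ± 0.34, -0.26 ± 0.22 and -0.05 ± 0.20. No gene on the array passed with limma, of which 582 (2.94%) had an unadjusted p under 0.05, and none of the 7 did. The 95% interval of RACGAP1, -0.48 to 0.10, was the narrowest of the 7, and that of ARHGAP11A, -0.77 to 0.94, the widest. Without SMYD2 array 1 the interaction was -0.35 ± 0.24 for ANLN, -0.21 ± 0.16 for ECT2, -0.22 ± 0.14 for RACGAP1 and -0.30 ± 0.25 for ARHGAP11A. It was then -0.52 ± 0.25 for CEP55, -0.45 ± 0.16 for DEPDC1 and -0.18 ± 0.18 for DEPDC1B, so all 7 were negative and ECT2 and ARHGAP11A had changed sign. With limma 0 of all genes passed in that fit either, and 675 (3.41%) had an unadjusted p under 0.05, of the 7 only DEPDC1. RB1 itself was 1.22 ± 0.31 higher with RB than in control, and 1.82 ± 0.31 higher with RB plus SMYD2 than with SMYD2. Its interaction was 0.60 ± 0.44 (log2, SE, all arrays). How RB acted and how much of its transcript was present cannot be told apart here. The interaction also sets RB without SMYD2 against untransfected cells.

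RB against SMYD2 sets the 2 single transfections side by side. With RB, RACGAP1 fell by 0.54 ± 0.10 and DEPDC1B fell by 0.60 ± 0.14 on the log2 scale (SE), with limma adjusted p of 0.00468 and 0.029. The other 5 ranged from -0.29 to -0.46 at limma adjusted p of 0.132 to 0.613. Thus 2 of 7 fell, where 1.86% of all genes were called lower. Without SMYD2 array 1 the count was 6, where 2.37% of all genes were called lower. RACGAP1 was then at -0.57 and DEPDC1B at -0.73. Of the others ECT2 was at -0.51, CEP55 at -0.69, DEPDC1 at -0.66 and ARHGAP11A at -0.84, at limma adjusted p of 0.0041 to 0.0406. ANLN, at -0.63, did not pass, with a limma adjusted p of 0.0509.

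**Figure D2:**
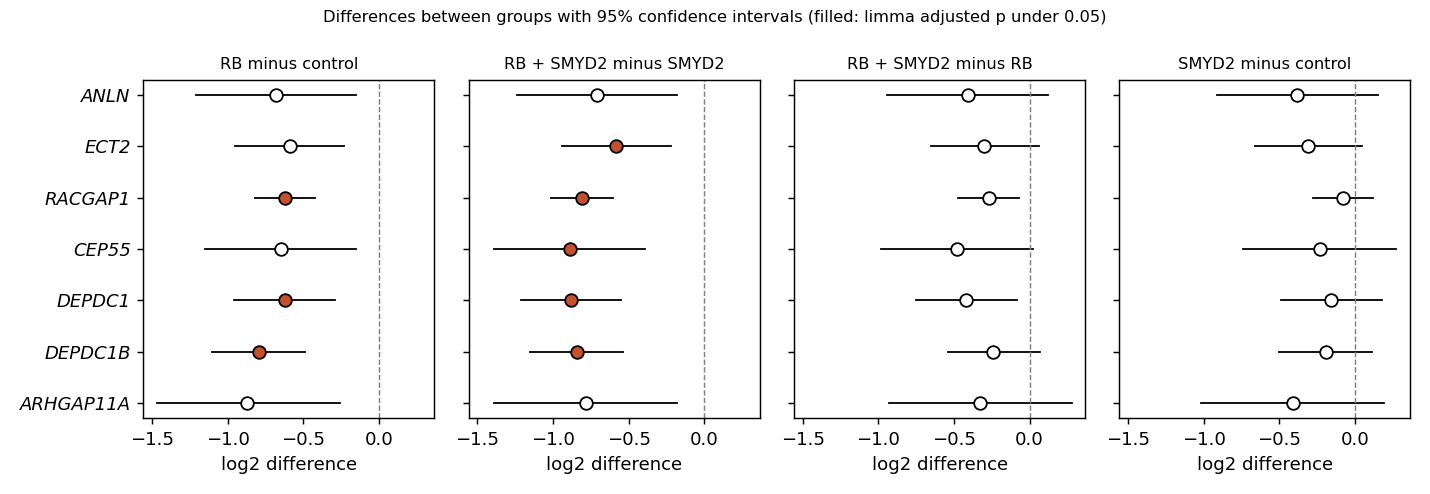
Differences in log2 signal (x axis) of the 7 genes (y axis) in 4 comparisons, with 95% confidence intervals from limma; filled points passed an adjusted p of 0.05. All points with RB against control and with RB plus SMYD2 against SMYD2 lie left of 0, and 3 and 5 of them are filled; none is filled in the other panels.

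Genes with several probe sets did not read the same on all of them. DEPDC1 had 4, and in RB against control these gave -0.62, -0.86, -0.76 and -0.75. Only 235545_at passed the fit over all 41097 probe sets, at a limma adjusted p of 0.0015. The second ANLN set, 1552619_a_at, averaged 8.15 with RB plus SMYD2, 8.72 with RB, 8.61 with SMYD2 and 9.25 in control. Its SMYD2 value rested on array 1, at 6.17. ECT2 had a dim set, 237241_at, that was flat at 3.68 to 3.90 on all 16 arrays, and whether it detects ECT2 transcripts in these cells is unknown. The remaining ECT2 set, 234992_x_at, averaged 5.92 with RB plus SMYD2, 6.16 with RB, 6.17 with SMYD2 and 6.50 in control. Over all 13 sets, 12 read lower with RB than in control and 3 were called lower, where 0.891% of all probe sets were. With RB plus SMYD2 against SMYD2, 5 of 13 were called lower, where 2.71% were. The block raised these counts to 6 and 8, where 2.01% and 4.97% of all probe sets fell.

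**Figure D3:**
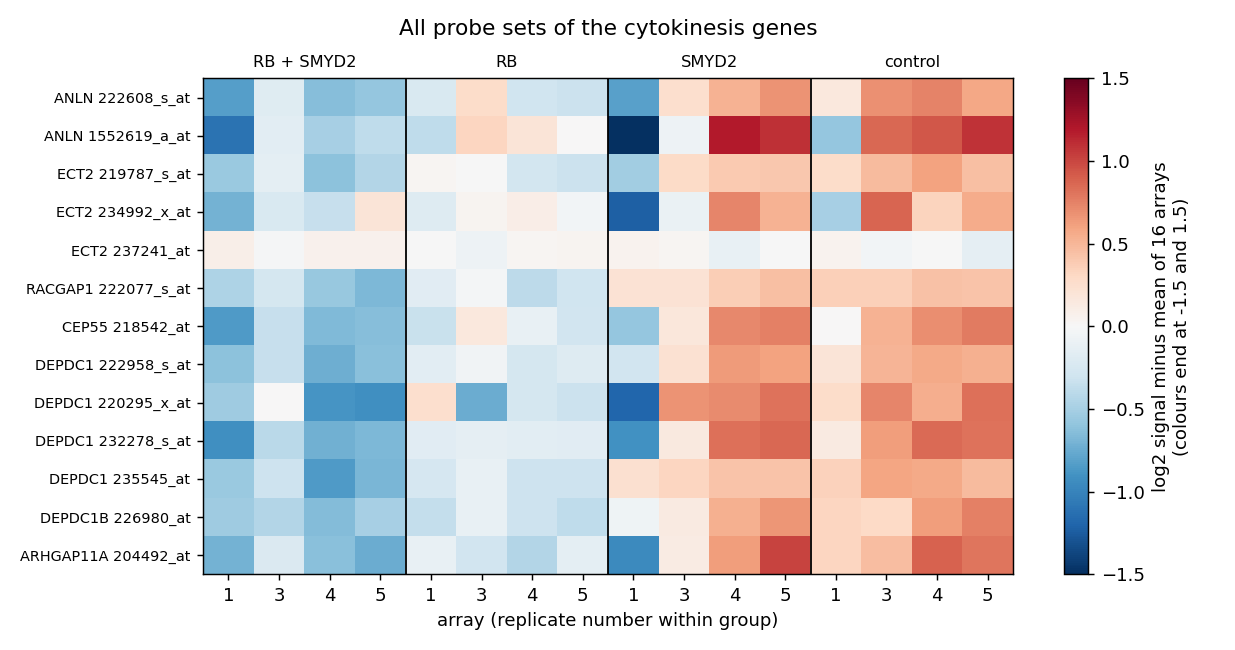
Log2 signal of each of the 13 probe sets (rows) on each of the 16 arrays (columns, grouped) minus that set's mean over the 16 arrays. Blue is below and red above the mean; the dim set 237241_at of ECT2 is nearly white throughout, and the column of SMYD2 array 1 is blue for most sets but not for RACGAP1 or DEPDC1 235545_at.

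How far SMYD2 array 1 fell under its own group differed widely among probe sets of 1 gene. For DEPDC1 its difference from the mean of the other SMYD2 arrays was -1.91, -1.52 and -0.77 on 3 sets but -0.15 on 235545_at. For ANLN the differences were -3.26 on 1552619_a_at and -1.30 on 222608_s_at, and for RACGAP1 -0.12. Control array 1, with the second largest ACTB gap, showed smaller differences of the same kind. There they were -1.54 and -0.52 for the same sets of ANLN, and -0.05 for RACGAP1. Where in the transcript each probe set lies was not analysed here, and the part of RNA quality in these differences was not tested.

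**Figure D4:**
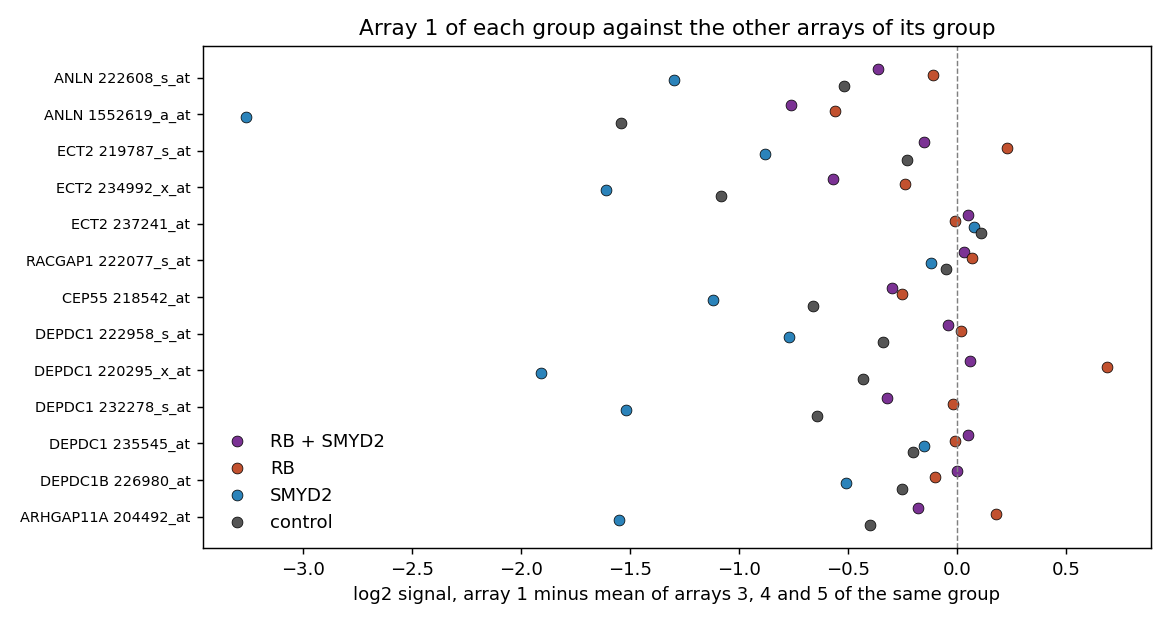
Log2 signal of array 1 minus the mean of arrays 3, 4 and 5 of the same group (x axis) for each of the 13 probe sets (y axis), coloured by group. The SMYD2 points reach -3.26 and the control points -1.54, both for ANLN 1552619_a_at, while the farthest RACGAP1 point lies at -0.12.

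Other genes of cytokinesis were read from lists by role. The central spindle list (13 of 13 measured) holds the kinesins, PRC1 and the chromosomal passenger complex that build and position the midzone. In RB against control 11 of the 13 fell and 0 rose, where 1.71% of all genes were called lower, and their median was -0.72. KIF14, the kinesin that recruits citron kinase, fell by 0.95 ± 0.17 on the log2 scale (SE). KIF23, the centralspindlin partner of RACGAP1, fell by 0.78 ± 0.18, and KIF11, which separates spindle poles, by 0.77 ± 0.18. KIF20A, a kinesin of the midzone, fell by 0.75 ± 0.10, and CDCA8, a passenger complex subunit, by 0.75 ± 0.15. BIRC5 at -0.59 ± 0.20 and INCENP at -0.36 ± 0.11, both passenger complex subunits, did not pass, with limma adjusted p of 0.144 and 0.0901. With the block BIRC5 fell, at a limma adjusted p of 0.0119. In RB plus SMYD2 against SMYD2 12 of 13 fell, where 4.25% of all genes were called lower, with a median of -0.96, all but INCENP at -0.22. Without SMYD2 array 1 the counts were 12 and 12, where 2.71% and 4.82% of all genes were called lower.

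The list of RhoA, its effectors and ring components (26 of 28 measured) showed no such shift. In RB against control 0 of 26 passed in either direction, where 1.71% of all genes were called lower. The median was -0.03, against 0.006 for all genes. The 4 largest differences were -0.50 ± 0.21 for DIAPH3 and -0.28 ± 0.09 for DIAPH1, formins that nucleate actin, 0.41 ± 0.11 for RHOB, a relative of RhoA, and 0.21 ± 0.24 for MYL9, a myosin light chain (SE). RHOA stood at 0.04 ± 0.14 and MYH9, a myosin heavy chain, at 0.04 ± 0.16. With the block DIAPH1 fell and RHOB rose, at limma adjusted p of 0.0271 and 0.0409. In RB plus SMYD2 against SMYD2, DIAPH1 fell by 0.48 ± 0.09 and DIAPH3 by 0.74 ± 0.21, while RHOB rose by 0.60 ± 0.11. Their limma adjusted p-values were 0.00186, 0.0426 and 0.00263, and 4.25% of all genes were called lower and 2.94% higher. The block raised the count there to 5 lower and 1 higher, where 7.60% and 6.62% of all genes were called.

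Septins, filament proteins that bind anillin (11 of 12 measured), gave 0 calls in RB against control and a median of 0.07. Of all genes, 1.71% were called lower there. SEPTIN4 was at 0.41 ± 0.17, SEPTIN6 at 0.22 ± 0.10, SEPTIN10 at -0.20 ± 0.24 and SEPTIN2 at 0.16 ± 0.07 (SE). SEPTIN6 rose by 0.33 ± 0.10 in RB plus SMYD2 against SMYD2, at a limma adjusted p of 0.0445, where 2.94% of all genes were called higher.

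ESCRT and abscission genes (25 of 28 measured), which act after CEP55, also gave 0 calls in RB against control, with a median of 0.06. Of all genes, 1.71% were called lower there. VPS28 was at 0.34 ± 0.13, CHMP1B at 0.24 ± 0.10, VPS37A at 0.20 ± 0.13 and CHMP2A at 0.18 ± 0.15. In RB plus SMYD2 against SMYD2, CHMP1B, an ESCRT-III subunit, rose by 0.39 ± 0.10 and ZFYVE19, a protein of the abscission checkpoint, fell by 0.40 ± 0.09, at limma adjusted p of 0.0171 and 0.0101. Of all genes, 2.94% were called higher and 4.25% lower in that comparison. With the block CHMP1A, at -0.23 ± 0.07 in that comparison, also fell, with a limma adjusted p of 0.0267, against 0.0531 without it. Genes of membrane traffic to the midbody (20 of 20 measured) had 0 calls and a median of 0.00 in RB against control. The exocyst subunits EXOC4 and EXOC5 were at 0.23 ± 0.10 and -0.17 ± 0.12 there, and VAMP8, a membrane fusion protein, at 0.17 ± 0.12. EXOC1, a further subunit of the exocyst, was at 0.29 ± 0.09 and rose by 0.46 ± 0.09 in RB plus SMYD2 against SMYD2, at a limma adjusted p of 0.00358. Of 4 relatives of the 8 genes, 2 were measured, and 1 was called lower in both comparisons. This was ARHGAP19, another GTPase-activating protein of mitosis. It fell by 0.56 ± 0.10 with RB against control and by 0.65 ± 0.10 with RB plus SMYD2 against SMYD2, at limma adjusted p of 0.00593 and 0.00061. The other measured relative was lower in neither comparison and was not called. With the block EXOC1 also rose in RB against control, at a limma adjusted p of 0.0465. Without SMYD2 array 1, RB against control gave 0 lower in each of the RhoA, septin, ESCRT and traffic lists, and 1, 0, 2 and 1 higher in the same order, where 2.71% of all genes were called lower and 2.27% higher.

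**Figure D5:**
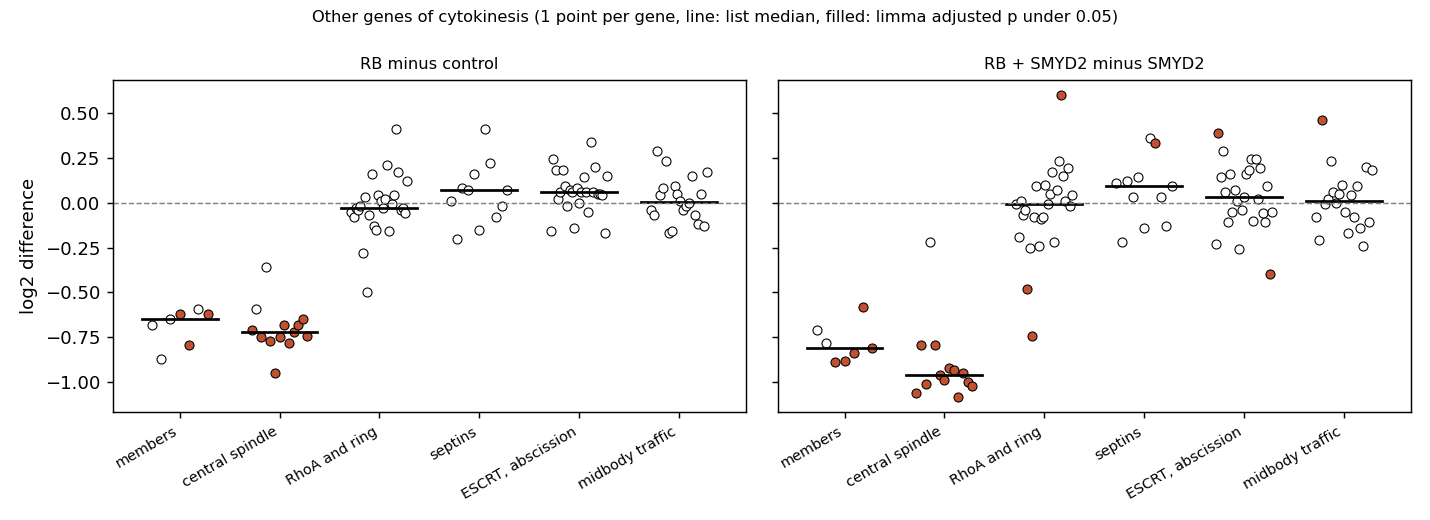
Log2 differences (y axis) of the 7 measured genes, labelled members, and of 5 lists of other cytokinesis genes (x axis), 1 point per gene, with the list median as a line; filled points passed a limma adjusted p of 0.05. The members and the central spindle list lie below 0 in both panels, with medians of -0.65 and -0.72 for RB minus control, while the medians of the other lists lie between -0.03 and 0.09.

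The 7 genes were also averaged on each array, which by itself does not show how closely they followed each other. After each gene's own mean was subtracted, their average per array was -0.65, -0.27, -0.64 and -0.60 with RB plus SMYD2 and -0.19, -0.01, -0.30 and -0.28 with RB. It was -0.43, 0.20, 0.54 and 0.65 with SMYD2, against 0.23, 0.48, 0.65 and 0.62 in control. In the groups given RB array 3 was the highest of its group, and in the others array 1 was the lowest. Single genes ran from -0.96 to 0.22 on SMYD2 array 1 but only from 0.13 to 0.29 on SMYD2 array 3. DEPDC1 stayed nearest to this average, with a root mean square difference of 0.070 over the 16 arrays, and ARHGAP11A farthest, at 0.206.

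Among 5174 genes with an SD of at least 0.2 over the 16 arrays, the 6 nearest to this average outside the set were RAD51AP1 (0.064), ATAD2 (0.071), SMC2 (0.074), MCM8 (0.083), KIF11 (0.084) and MASTL (0.085), with the root mean square difference in parentheses. RAD51AP1 is known from DNA repair, SMC2 from condensin, MCM8 from recombination, KIF11 from the spindle and MASTL from mitotic entry. Taken singly, the nearest gene was CEP55 for ANLN (0.137), SMC4 for ECT2 (0.082), MELK for RACGAP1 (0.083), RFC3 for CEP55 (0.104), ATAD2 for DEPDC1 (0.066), ORC1 for DEPDC1B (0.099) and PLK4 for ARHGAP11A (0.182).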

How the data were processed

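Total RNA of 16 samples was hybridised to 1 array each. The authors deposited log2 signals for 54675 probe sets. These came from RMA, a method of background correction, quantile normalization and probe summary, per the submitters' processing notes. Its version, and whether the 16 arrays were processed jointly, are not stated. RMA keeps no detection call. Array medians were 5.59 to 5.64, and arrays of 1 group correlated at 0.981 to 0.998 with at most 0.075% of values identical, so none was treated as a copy. The number of arrays limits the precision.

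Of the probe sets, 41097 carried 1 gene symbol, 1801 several and 11777 none. Each gene was represented by its brightest probe set over all arrays (19775 genes). Groups came from the labels. Differences were tested two-sided with limma 3.58.1 in R 4.3.3 (lmFit, eBayes with a trend, all 16 arrays, 1 mean per group), with Benjamini-Hochberg adjustment over all genes in each of 7 comparisons and a threshold of 0.05, and again over 41097 probe sets. The fit was tested on simulated data. Same-numbered arrays were checked for pairing: their deviations from group means correlated above 0.1 in every pair, at least 0.145, except for RB with SMYD2, where the lowest was -0.077. Alternatives covered scaling, probe set choice, a filter on dim genes, the variance model, array weights, samples in the fit, each array left out and the replicate block. The genes, the pathway and marker lists and the tests were chosen with earlier results of these data known. From each list the 4 largest differences in RB against control and all calls, where 6 or fewer, are named, and the 6 genes nearest in profile. BIRC5, INCENP, RHOA, MYH9 and genes called only with the block were named after their values were seen. Promoter windows are RefSeq's on GRCh38.p14. Figures were drawn with matplotlib 3.10.9.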

Additional observations from a re-analysis of the deposited data

Results flagged for a closer look

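In 5 of 52 sets of 4 arrays (13 probe sets in 4 groups), 1 array stood apart from the other 3 by more than Dixon's 95% limit, where chance gives about 2.6, or 1 in 20. ANLN 222608_s_at read 10.67 on RB array 3, with the other RB arrays at 10.07 to 10.17. ANLN 1552619_a_at read 8.10 on control array 1, with the others at 9.54 to 9.77. DEPDC1 222958_s_at read 10.39 on control array 1, with the others at 10.71 to 10.76. ECT2 219787_s_at read 9.79 on SMYD2 array 1, with the others at 10.60 to 10.71. DEPDC1 220295_x_at read 8.53 on SMYD2 array 1, with the others at 10.39 to 10.53. Of the 5, 4 lay on the 2 arrays with the largest 3′ to 5′ gap of ACTB. Their part in the group differences was not tested, and values of the 7 genes without SMYD2 array 1 stand beside the tests that use that group.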

How the results depend on the processing

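Of 1260 single-gene values over 26 alternatives, 1136 kept direction and side of the threshold, 42 gained the call, 50 lost it and 32 changed sign; the cause was not tested. With the replicate block, the cytokinesis genes called lower in RB against control numbered 7, with 6 of their probe sets. In RB plus SMYD2 against SMYD2 8 probe sets fell. The block also called DEPDC1 lower in RB against SMYD2 (limma adjusted p 0.0418). Deviations from group means of same-numbered arrays of these groups correlated at -0.077 to 0.425. No other call of the 7 genes changed with the block beyond those in the report. Array weights gave 7 and 10 (genes, probe sets) in RB against control, 11 probe sets in RB plus SMYD2 against SMYD2 and 7 genes in RB against SMYD2. Leaving out both control array 1 and SMYD2 array 1, an alternative chosen after seeing the data, gave 7 and 10, 11, and 7. Fits of only the groups compared gave 6 genes and 8 probe sets in RB against control, 3 genes in RB plus SMYD2 against SMYD2 and 1 in RB against SMYD2. With the most variable probe set per gene, 3 fell in RB plus SMYD2 against SMYD2 and 4 in RB plus SMYD2 against control. Leaving out 1 array gave 2 to 7 genes (3 to 9 probe sets) in RB against control, 3 to 7 (4 to 10) in RB plus SMYD2 against SMYD2, 6 to 7 in RB plus SMYD2 against control, 1 to 6 in RB against SMYD2 and 0 in the rest. With median centring DEPDC1 in RB against control had a limma adjusted p of 0.0506. Sign changes were all in uncalled values. In the interaction they were ANLN 0.07 and DEPDC1 0.03 (most variable probe set), ANLN 0.02 (mean of probe sets), ECT2 -0.01 (median centring), ECT2 -0.12 and ARHGAP11A -0.21 (weights), and -0.15 and -0.20 (both arrays out). ANLN in RB against SMYD2 was 0.11 (most variable probe set), and DEPDC1 in SMYD2 against control 0.0033 (weights). With 1 array out, the interaction ranged from -0.35 to 0.15 for ANLN, -0.21 to 0.10 for ECT2, -0.18 to 0.07 for DEPDC1B and -0.30 to 0.36 for ARHGAP11A, and SMYD2 against control from -0.40 to 0.05 for CEP55 and -0.27 to 0.03 for DEPDC1. All genes called numbered 585 in RB against control (block 1399, weights 2296, both arrays out 1185, 1 array out 286 to 984), and 1422 in RB plus SMYD2 against SMYD2 (2812, weights 3141, groups compared 748, 1 array out 859 to 1753). They numbered 1424 in RB plus SMYD2 against control (2562, 3687, 2253, 899 to 2032) and 642 in RB against SMYD2 (1831, 1790, 1101, groups compared 193, 304 to 888). The most variable probe set gave 1 gene each in RB plus SMYD2 against RB and in the interaction, where 0 were called. Scaling moved the median of all genes by at most 0.021. The filter on dim genes dropped ARHGAP11A. RMA gives no detection call, so dim probe sets carry no test of presence.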
